A study of Mus musculus with 10 samples.

Results

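The dental papilla-like mesenchyme of the E14.5 mouse lower incisor bud was defined here by a rule on transcripts. Of 8192 cell barcodes at this stage, 6091 had at least 700 detected genes and at most 20% mitochondrial counts, and 5266 of these carried at most 2 of the epithelial transcripts Epcam, Krt5, Krt14, Krt17, Dsp and Dsc3. Cells were taken when they held a unique molecular identifier (UMI, 1 tagged transcript) of at least 2 of Crym, Tril, Egr3, Fgf3, Penk and Vegfd and none of Ibsp or Sfrp4. The rule found 1072 cells, which is 17.6% of the cells that passed (95% Clopper-Pearson interval 16.7 to 18.6), and they are called papilla-rule cells below. The remaining 3015 cells with at least 2 of Prrx1, Twist1, Pdgfra and Col3a1 under the same epithelial limit are called other mesenchyme. Of the cells with at least 2 rule genes, 147 were not taken because of Ibsp or Sfrp4, most of which belong to other mesenchyme, 70 because of epithelial transcripts and 13 because of low quality.

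The study profiled wild-type NMRI mouse embryos by droplet single-cell RNA sequencing, from whole mandibles at the earliest stage, E11.5, and from dissected buds of the lower incisor at the later ones, all dissociated with Collagenase P. No transgene, mutation or treatment distinguished the groups, and each stage drew on more than 1 litter, with its samples joined in 1 deposited matrix. Of the 10 labelled samples 4 belong to the first stage, 4 to the second and 2 to the last, but nothing links a barcode to one of them, so each stage counts as 1 sample and no p-value was computed. The 3 matrices held 22619 barcodes, with 31670249 UMIs at E14.5, 42895059 at E16.5 and 49264075 at E11.5. Levels are CPM, the count of a gene relative to all UMIs summed over a group of cells, and all intervals are 95% intervals that cover counting error only.

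The dental papilla is the condensed, neural crest-derived mesenchyme that lies under and within the folding dental epithelium of a tooth bud. It exchanges FGF, BMP, Wnt and activin signals with that epithelium and later gives rise to odontoblasts and pulp, while the dental follicle around it forms periodontal tissue and the adjoining mesenchyme forms alveolar bone. In the incisor, FGF ligands made by this mesenchyme are known to sustain the epithelial stem cell region at the labial cervical loop.

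The 6 genes that chose the cells differed widely in how particular they were to them. Their values describe the selection and support nothing else. Fgf3, a ligand of the FGF family, was measured at 73.0 CPM in papilla-rule cells and 3.66 CPM in other mesenchyme, and 32.6% of papilla-rule cells held a UMI of it. Crym, which encodes a thyroid hormone-binding crystallin, was measured at 124 CPM against 7.52, in 32.3% and 1.36% of cells. Egr3, an early growth response transcription factor, was at 128 CPM against 12.03, and Vegfd, a vascular endothelial growth factor, at 62.6 CPM against 7.42.

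Tril and Penk were the most widely detected of the 6 and decided most memberships. Tril, an accessory protein of Toll-like receptors, was found in 80.1% of papilla-rule cells and 10.3% of other mesenchyme, at 287 and 44.8 CPM. Penk, the precursor of enkephalin peptides, was found in 82.6% and 34.2%, at 470 and 236 CPM. The pair Tril and Penk alone admitted 249 cells, or 23.2% of the papilla-rule cells (20.7 to 25.9), which made it the most frequent combination. All 6 genes were present together in 18 cells.

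The rule asks for detected transcripts, and depth differed between the groups it made. Papilla-rule cells had a median of 5557 UMIs and other mesenchyme 3088. When every cell with at least 2000 UMIs was thinned to 2000, leaving out 40 papilla-rule cells and 421 others, Fgf3 was detected in 13.7% and 0.463%, Crym in 16.4% and 0.617%, Egr3 in 21.6% and 1.73%, Vegfd in 10.6% and 1.002%, Tril in 45.1% and 6.05%, and Penk in 55.9% and 26.4%. The same genes were counted in cells outside the mesenchyme, where free transcripts and own expression were not told apart. Among 49 immune-class cells with a median of 6438 UMIs, Crym and Vegfd were found in 0 cells, Fgf3, Tril and Penk in 1 cell each and Egr3 in 2. Among 337 epithelial-class cells with a median of 4370 UMIs, Fgf3 was found in 1.78%, Crym in 2.37%, Egr3 in 4.45%, Vegfd in 1.19%, Tril in 7.72% and Penk in 17.2%.

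**Figure D1:**
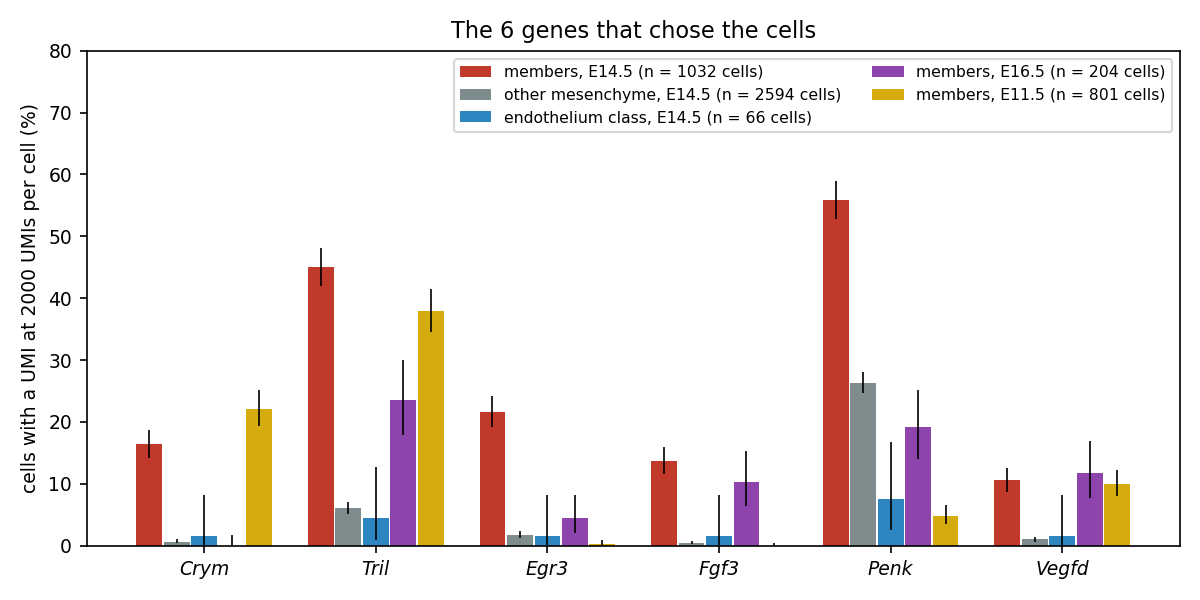
Share of cells with a UMI of each of the 6 rule genes (y axis, percent) after every cell was thinned to 2000 UMIs, with 95% Clopper-Pearson intervals. Papilla-rule cells of the 3 stages are labelled members, and the blue bars are 66 endothelial-class cells. At E14.5 Penk reached 26.4% of other mesenchyme, whereas Fgf3 reached 0.463% and Crym 0.617%.

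The promoters of the rule genes Fgf3, Tril and Vegfd, and of Dlx2, the gene with the highest ratio of papilla-rule cells over other mesenchyme among those outside the rule, are shown because these transcripts were found in the same cells. The sequences are RefSeq promoters of the build GRCm38.p6, from 250 bases before to 50 after the annotated start, on the strand of the gene. Of the 6 rule genes 3 were matched in that table, and of the 30 further genes named below as highest or lowest 17 were matched. The other rule genes, with no promoter shown, lie at chr7:120186380-120202111 on the minus strand (Crym), chr14:70077203-70082614 on the plus strand (Egr3) and chr4:4133531-4138819 on the minus strand (Penk) in GRCm38. Capitals mark a match to a searched motif on either strand.
Fgf3, chr7:144838362-144838661, plus strand: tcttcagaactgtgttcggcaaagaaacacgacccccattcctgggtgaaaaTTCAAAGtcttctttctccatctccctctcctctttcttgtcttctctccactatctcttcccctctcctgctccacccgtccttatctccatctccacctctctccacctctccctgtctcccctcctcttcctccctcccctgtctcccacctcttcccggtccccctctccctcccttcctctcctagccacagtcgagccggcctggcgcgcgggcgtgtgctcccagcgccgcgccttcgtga
Tril, chr6:53820776-53821075, minus strand: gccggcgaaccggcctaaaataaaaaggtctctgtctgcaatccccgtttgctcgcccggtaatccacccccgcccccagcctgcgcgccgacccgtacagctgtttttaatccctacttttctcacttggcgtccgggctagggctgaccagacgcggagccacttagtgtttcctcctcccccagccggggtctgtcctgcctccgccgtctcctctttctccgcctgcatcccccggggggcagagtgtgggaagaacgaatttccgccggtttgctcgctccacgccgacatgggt
Vegfd, chrX:164373272-164373571, plus strand: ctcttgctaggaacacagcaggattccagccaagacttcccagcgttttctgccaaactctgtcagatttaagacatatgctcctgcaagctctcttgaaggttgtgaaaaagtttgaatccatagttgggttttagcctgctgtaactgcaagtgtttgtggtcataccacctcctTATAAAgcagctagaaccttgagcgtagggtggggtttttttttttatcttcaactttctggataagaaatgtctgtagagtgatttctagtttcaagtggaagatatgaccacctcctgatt
Dlx2, chr2:71546705-71547004, minus strand: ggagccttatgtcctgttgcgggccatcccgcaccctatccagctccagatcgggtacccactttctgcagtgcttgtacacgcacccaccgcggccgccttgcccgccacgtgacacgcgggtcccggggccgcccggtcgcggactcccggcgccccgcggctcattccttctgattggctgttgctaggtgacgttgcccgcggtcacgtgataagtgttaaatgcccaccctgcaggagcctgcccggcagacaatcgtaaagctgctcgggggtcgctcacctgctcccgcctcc

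The motifs searched on both strands were the homeodomain cores TAATTA and TAATTG, the EGR sites GCGTGGGCG and GCGGGGGCG, the TCF/LEF sites CTTTGAT and CTTTGAA, the AP-1 site TGACTCA, the CRE site TGACGTCA, the ETS site CCGGAAGT and the TATA sequence TATAAA. The Fgf3 promoter held CTTTGAA on its opposite strand at positions -198 to -192 from the start, letters found in 5.14% of the 32851 promoters of the table. The Vegfd promoter held TATAAA at positions -73 to -68, found in 13.6% of all promoters. None of these letters was in the Tril or Dlx2 window. The 4 promoters shared no searched motif.

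Clusters found without any of the 18 genes of the rule placed most of these cells together. Leiden clustering of the 4087 cells of both groups gave 7 clusters, and cluster 1, of 1157 cells, held 819 of the papilla-rule cells, or 76.4% (73.7 to 78.9). Its leading genes were Dlx2, Lgals7, Cxxc5, Itga6, Igfbp3 and Me3. Cluster 1 held 92.8% of the papilla-rule cells with at least 3 rule genes but 55.7% of those with exactly 2. It also held 338 cells that were not papilla-rule cells. The genes that give the cells their name are those of the rule, so the name could not be checked on them. The 4 transcripts that defined other mesenchyme, Prrx1, Twist1, Pdgfra and Col3a1, summed to 1332 CPM in papilla-rule cells and 2637 CPM in other mesenchyme, and 957 papilla-rule cells, or 89.3%, carried at least 2 of them.

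The other papilla-rule cells were spread over clusters of different character. Cluster 3, led by the mitotic genes Prc1, Nusap1 and Cenpf, held 103 of them. Cluster 4, led by Ccnd1, Pitx1 and Ntrk2, held 76, and 73.7% of its cells carried Penk. Cluster 7, led by AY036118, mt-Nd6 and Lamc1, held 24, cluster 6, led by globins, 22, cluster 5, led by Osr1 and Ebf2, 18, and cluster 2, led by Igfbp5 and Alpl, 10. Papilla-rule cells outside cluster 1 carried Tril at 273 CPM, close to the 290 CPM inside it, but Crym at 26.6 CPM against 146 and Fgf3 at 24.8 CPM against 83.7.

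**Figure D2:**
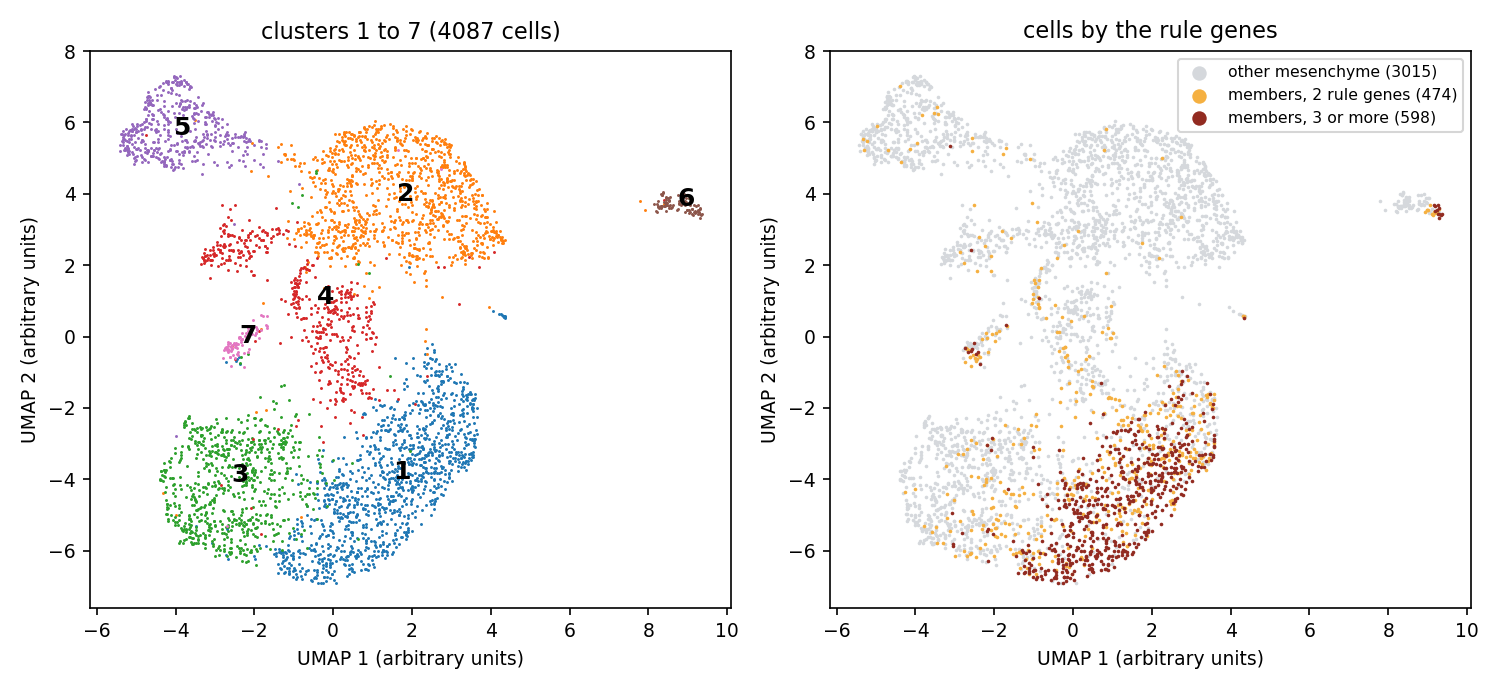
UMAP maps of the 4087 papilla-rule and other mesenchymal cells at E14.5 (both axes in arbitrary units), coloured by cluster on the left and by the number of rule genes on the right. The 598 papilla-rule cells with 3 or more rule genes lie mostly in cluster 1, and the 474 with exactly 2 are spread more widely.

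Globin transcripts were concentrated in a few cells. The 8 erythroid markers, Hbb-bs the most abundant, summed to 8776 CPM in papilla-rule cells and 14127 CPM in other mesenchyme, and to 630 CPM in papilla-rule cells inside cluster 1 against 45635 CPM outside it. Cluster 6, with 86 cells of which 22 are papilla-rule cells, held them at 342920 CPM, and each of the other clusters held them at 2157 CPM or less. Leaving globin and mitochondrial genes out of the totals left 59 genes higher and 171 lower by the 2-fold criterion described next. Epithelial, endothelial and immune markers summed to 15.9, 23.4 and 23.1 CPM in papilla-rule cells and to 44.8, 27.3 and 26.9 CPM in other mesenchyme. Barcodes shared with another stage numbered 13 for E11.5 and 16 for E16.5, and 1 of them belonged to a papilla-rule cell.

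The papilla-rule cells were marked by a small set of higher transcripts and a larger set of lower ones. Genes were ranked when 10% of the cells of one group or more held a UMI and the counts reached 50, rule genes left out. Of 5323 genes ranked, 59 (1.11%) were at least 2-fold higher than in other mesenchyme and 167 (3.14%) at least 2-fold lower, which is meant by higher and lower below. Ratios are log2 of CPM after adding 10 CPM, with a median of 0.03 over all genes ranked. At 2000 UMIs per cell 2801 genes were ranked, of which 46 (1.64%) were higher and 119 (4.25%) lower, the background of the thinned counts given below. In a single sample these are descriptions of the 2 groups of cells and not tests.

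The highest ratio belonged to Dlx2, a homeobox transcription factor of jaw and tooth mesenchyme. Dlx2 was measured at 106 CPM (97.8 to 114) in papilla-rule cells and 12.2 CPM in other mesenchyme, a log2 ratio of 2.38 (2.21 to 2.55). The antisense transcript Dlx1as, from the same Dlx locus, was at 34.2 and 2.63 CPM, a ratio of 1.81. Dlx1 itself was low in both groups, at 11.9 and 3.95 CPM, and did not enter the ranking. Dlx1as and Dlx1 overlap, and the sources used here do not state how strand was used in counting.

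Lgals7, a galectin, was the most widely detected of the other leading genes. It was found in 74.3% of papilla-rule cells and 19.7% of other mesenchyme, at 480 CPM (463 to 497) and 125 CPM (118 to 132), a log2 ratio of 1.86. Itga6, a laminin-binding integrin subunit, was at 98.7 and 19.9 CPM, Emb, a chaperone of monocarboxylate transporters, at 72.0 and 15.4 CPM, Thy1, a membrane glycoprotein, at 47.3 and 10.6 CPM, and Piezo2, a mechanically gated channel, at 208 and 68.9 CPM.

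The rest of the 15 highest had diverse roles. Tfap2c, an AP-2 transcription factor, was at 95.5 and 24.8 CPM, and Cxxc5, a zinc finger protein of Wnt and BMP signalling, at 84.2 and 16.3 CPM. Hs3st6, a heparan sulfate sulfotransferase, had a log2 ratio of 1.75, Me3, a mitochondrial malic enzyme, 1.71, Asns, asparagine synthetase, 1.56, Igfbp3, which binds insulin-like growth factors, 1.54, Gldn, gliomedin, 1.53, and Map2, a microtubule-associated protein, 1.48. At 2000 UMIs per cell the lowest ratio of the 15 was 1.37, for Igfbp3. With 50 CPM added in place of 10, 9 of the 15 fell under 2-fold, namely Gldn (0.55), Dlx1as (0.68), Thy1 (0.68), Me3 (0.74), Map2 (0.82), Hs3st6 (0.88), Asns (0.90), Emb (0.90) and Tfap2c (0.96). The next count covers the higher or lower genes of the lists below and those whose share of cells differed most by rule genes. With the 15 highest and 15 lowest left out, 12 of them kept 2-fold with 50 CPM added and 33 did not. Those that kept it were Ccnd2, Nme1, Prrx2, Id1, Col1a1, Col1a2, Col5a2, Sparc, Fos, Klf4, Igf2 and Ncam1.

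Of the 15 genes with the lowest ratios 3, Igfbp5, Alpl and Postn, were on the list of follicle and osteogenic genes. Igfbp5, another insulin-like growth factor-binding protein, was at 14.6 CPM (11.8 to 17.9) in papilla-rule cells and 287 CPM (277 to 297) in other mesenchyme, a log2 ratio of -3.59 (-3.78 to -3.40). Alpl, the alkaline phosphatase of mineralizing tissue, was at 4.81 and 94.3 CPM, and Postn, the matrix protein periostin, at 69.6 and 496 CPM. Cdkn1c, a cyclin-dependent kinase inhibitor, was at 157 and 1027 CPM, a ratio of -2.64. The comparison group was rich in cells with Ibsp or Sfrp4, which the rule bars from the papilla-rule cells. Against other mesenchyme without those cells, 45 genes were higher and 126 lower.

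The rest of the 15 lowest had diverse roles. Pax3, a neural crest and muscle regulator, had a log2 ratio of -2.59, Maf -2.41, Osr1, a regulator of jaw and limb mesenchyme, -2.31, Plagl1 -2.26 and Zfhx3 -2.14. Igf1, an insulin-like growth factor, was at 11.9 and 109 CPM, a ratio of -2.45, and the chemokine Cxcl12 at 11.2 and 83.0 CPM, a ratio of -2.13. Sulf1, a heparan sulfate endosulfatase, reached -2.61, Slc1a3, a glutamate transporter, -2.41, Stmn2 -2.39 and Pmp22 -2.17. With 50 CPM added Pmp22 came to -0.98, the only one of the 15 lowest to fall under 2-fold.

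**Figure D3:**
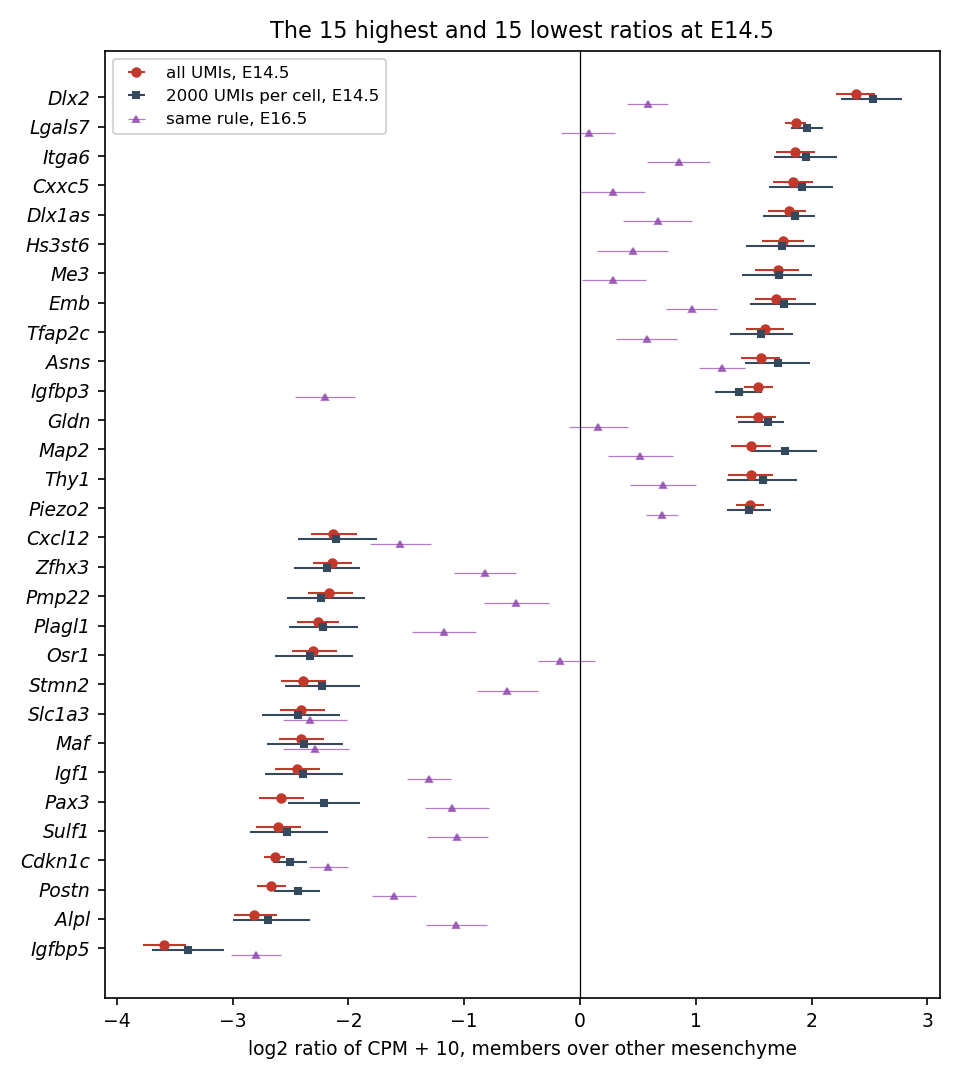
Log2 ratio of CPM plus 10 (x axis) of papilla-rule cells over other mesenchyme for the 15 highest and 15 lowest genes at E14.5, from all UMIs (circles), from cells thinned to 2000 UMIs (squares) and for cells of the same rule at E16.5 (triangles), with 95% intervals. At E14.5 Dlx2 stands at 2.38 and Igfbp5 at -3.59, and Igfbp3 has the opposite sign at E16.5.

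Among 18 odontogenic transcription factors, 12 were ranked, 3 were higher and 2 lower, with a median log2 ratio of 0.51. At 2000 UMIs per cell 9 were ranked, since fewer genes reach the limit on detection, and 2 were higher and 0 lower. The unranked Msx2 and Sox9 had ratios of 1.24 and -2.02 there, and Lhx8 came to -0.995. Beside Dlx2, the homeobox genes Prrx2 (470 and 190 CPM, ratio 1.26) and Msx2 (32.1 and 8.83 CPM, ratio 1.16) were higher. Msx1, which is required for tooth development past the bud stage, was at 403 and 288 CPM, a ratio of 0.47, and Pax9, likewise required, at 123 and 61.0 CPM, a ratio of 0.91. The chondrogenic regulator Sox9 (3.69 and 42.7 CPM) and Lhx8 (19.6 and 53.8 CPM) were lower. With 50 CPM added, Msx2 came to 0.48, Sox9 to -0.79 and Lhx8 to -0.58. Barx1, known as a molar-field gene, was at 1.44 and 6.01 CPM. Of 16 distal jaw patterning factors 9 were ranked and 0 were higher, and Hand2 was at 179 and 250 CPM, a ratio of -0.46.

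Of 18 FGF pathway genes outside the rule 10 were ranked, 8 had a ratio above 0, and 2 passed 2-fold. These were the feedback inhibitors Dusp6, a phosphatase of ERK kinases, at 55.8 and 14.1 CPM, and Il17rd, at 47.0 and 11.46 CPM. At 2000 UMIs per cell 2 of the 18 genes were ranked, 1 with a ratio above 0, and 0 passed. The limit on detection could be met in 1 group alone, and papilla-rule cells were deeper, so the 8 are a description only. The unranked Dusp6 and Il17rd had ratios of 1.55 and 1.46 at 2000 UMIs per cell. With 50 CPM added they came to 0.72 and 0.66, so that 0 passed. The transcription factors Etv4 and Etv5 and the inhibitor Spry4, which commonly follow FGF signalling, had ratios of 0.99, 0.78 and 0.87, and the ligand Fgf10 a ratio of 0.86 at 31.4 and 12.8 CPM. The receptor Fgfr1 was at 147 CPM in papilla-rule cells and 184 CPM in other mesenchyme. Fgfr2, whose epithelial isoform binds both Fgf3 and Fgf10, was at 7.54 CPM in papilla-rule cells and 44.1 CPM in the epithelial class.

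In the BMP and activin pathway 10 of 20 genes were ranked, 3 were higher and 0 lower, and the median was 0.59. Inhba, the subunit of the ligand activin A, was at 531 CPM (513 to 550) and 254 CPM (245 to 264), a ratio of 1.03. The BMP response genes Id1 (229 and 76.7 CPM, ratio 1.46) and Id3 (772 and 371 CPM, ratio 1.04) were higher. With 50 CPM added Id1 kept 2-fold at 1.14, while Id3 came to 0.96 and Inhba to 0.93. Bmp4, a mesenchymal signal of the tooth bud, was at 78.8 and 46.2 CPM, a ratio of 0.66.

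Of 24 Wnt pathway genes 12 were ranked, 2 were higher and 3 lower, and at 2000 UMIs per cell 6 were ranked, 1 higher and 1 lower. Lef1, a transcription factor that mediates Wnt responses, was at 170 and 63.3 CPM, a ratio of 1.30, and the secreted inhibitor Dkk1 at 58.1 and 17.9 CPM, a ratio of 1.28. The secreted antagonists Sfrp2 (-1.66), Dkk2 (-1.65) and Sfrp1 (-1.25) were lower. Sostdc1, an antagonist of BMP and Wnt signals, was the list member with most UMIs, at 483 and 265 CPM. In the hedgehog list 5 of 11 genes were ranked and 1 was lower, the co-receptor Gas1 at 20.4 and 86.8 CPM, while the receptor and target Ptch1 stood at 281 and 293 CPM.

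Follicle and osteogenic genes were low as a group. Of 17 genes 8 were ranked, 6 were lower and 1 higher, and the list summed to 487 CPM in papilla-rule cells and 1926 CPM in other mesenchyme. Beside Igfbp5, Alpl and Postn the lower genes included Col1a1 (219 and 728 CPM) and Spon1 (5.94 and 39.0 CPM). Spp1, osteopontin, was the exception at 51.8 and 17.9 CPM, but its ratio of 1.15 came to 0.82 with cells of 3 or more rule genes alone and to 0.89 with thinning before the rule. At 2000 UMIs per cell 5 genes of the list were ranked, 5 were lower and 0 higher. The list shares its tissue with Ibsp and Sfrp4, which the rule used. Of 18 matrix genes 16 were ranked and 7 were lower, among them Col12a1 (-2.03), Col1a2 (-1.47) and Fn1 (-1.34), while Vcan, the proteoglycan versican, was at 497 and 576 CPM. The odontoblast products Dspp and Dmp1 were counted 0 and 5 times in papilla-rule cells.

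Egr3, which helped to choose the cells, is itself an immediate early gene. Of 21 other immediate early genes 12 were ranked, 6 were lower and 0 higher, and the list summed to 874 CPM (851 to 898) and 1773 CPM (1748 to 1798). Fos was at 73.8 and 348 CPM, a ratio of -2.09, Fosb had a ratio of -1.80, Klf4 -1.73, Egr1 -1.24, Jund -1.23 and Junb -1.11. With 50 CPM added Fos and Klf4 kept 2-fold, while Fosb came to -0.84, Egr1 to -0.87, Jund to -0.96 and Junb to -0.57. Against other mesenchyme without cells with Ibsp or Sfrp4, Egr1 came to -0.98 and Junb to -0.77. Jun, the member with most UMIs, had a ratio of -0.98.

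Cell cycle genes had ratios above 0 that stayed under 2-fold. All 10 were ranked, 10 had a ratio above 0, and none was past 2-fold in either direction. Top2a, a topoisomerase of dividing cells, was at 835 and 588 CPM, a ratio of 0.50, and Ube2c, which acts in mitotic exit, at 432 and 262 CPM, a ratio of 0.70. Axon guidance genes went the other way, with 7 of 16 ranked, 4 lower and 0 higher, and at 2000 UMIs per cell 2 ranked and both lower. Ncam1 (91.6 and 296 CPM), the neuropilins Nrp1 (-1.71) and Nrp2 (-1.15) and the ligand Slit2 (-1.14) were the lower genes. Of 15 growth factors 8 were ranked and 4 were lower, with Angpt1 (-1.54) and Igf2 (-1.36) beside Igf1 and Cxcl12. Ptn, pleiotrophin, was the growth factor with most UMIs, at 2190 and 1454 CPM. In the retinoic acid list 6 of 14 genes were ranked and 2 were lower, the degrading enzyme Cyp26b1 (-1.23) and the binding protein Crabp1 (-1.14), the only one of them ranked and lower at 2000 UMIs per cell.

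Of 12 listed receptors 3 were ranked, 1 was lower and 0 were higher, and they summed to 243 CPM in papilla-rule cells and 396 CPM in other mesenchyme, with Fgfr1 the one with most UMIs. Flt4, a receptor for Vegfd, was counted once in papilla-rule cells, at 0.161 CPM, and was at 55.3 CPM (34.2 to 84.6) in the 87 endothelial-class cells, whose markers do not include it. Kdr, which is one of those markers, was at 0.802 and 535 CPM. The opioid receptors Oprm1 and Oprk1, which bind peptides made from Penk, were counted 0 times in papilla-rule cells, which allows a level of up to 0.481 CPM, and Oprd1 4 times. Tlr4, whose signalling Tril assists, was counted 0 times, with the same limit, and none of 7 genes of its pathway was ranked. Thra, a nuclear receptor for the hormone that Crym binds, was at 52.0 and 136 CPM, a ratio of -1.24, and 1 of 3 ranked genes of the thyroid hormone list of 9.

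The levels of the leading genes differed among papilla-rule cells by the number of rule genes. Cells of other mesenchyme with exactly 1 rule gene, just outside the threshold, held Dlx2 at 11.99 CPM, cells with 2, just inside it, at 55.7 CPM and cells with 3 or more at 133 CPM. Lgals7 was at 147, 384 and 532 CPM in the same order, and Igfbp5 at 143, 30.8 and 5.71 CPM. The same boundary in the rule genes themselves ran from 17.1% to 69.6% of cells for Tril and only from 74.9% to 78.7% for Penk. Cells of other mesenchyme with 1 rule gene could hold Ibsp or Sfrp4, which the rule bars from papilla-rule cells. Median depth also differed at these steps, with 3376, 4461.5 and 6390.5 UMIs. The part of depth and of this exclusion in the levels was not tested.

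**Figure D4:**
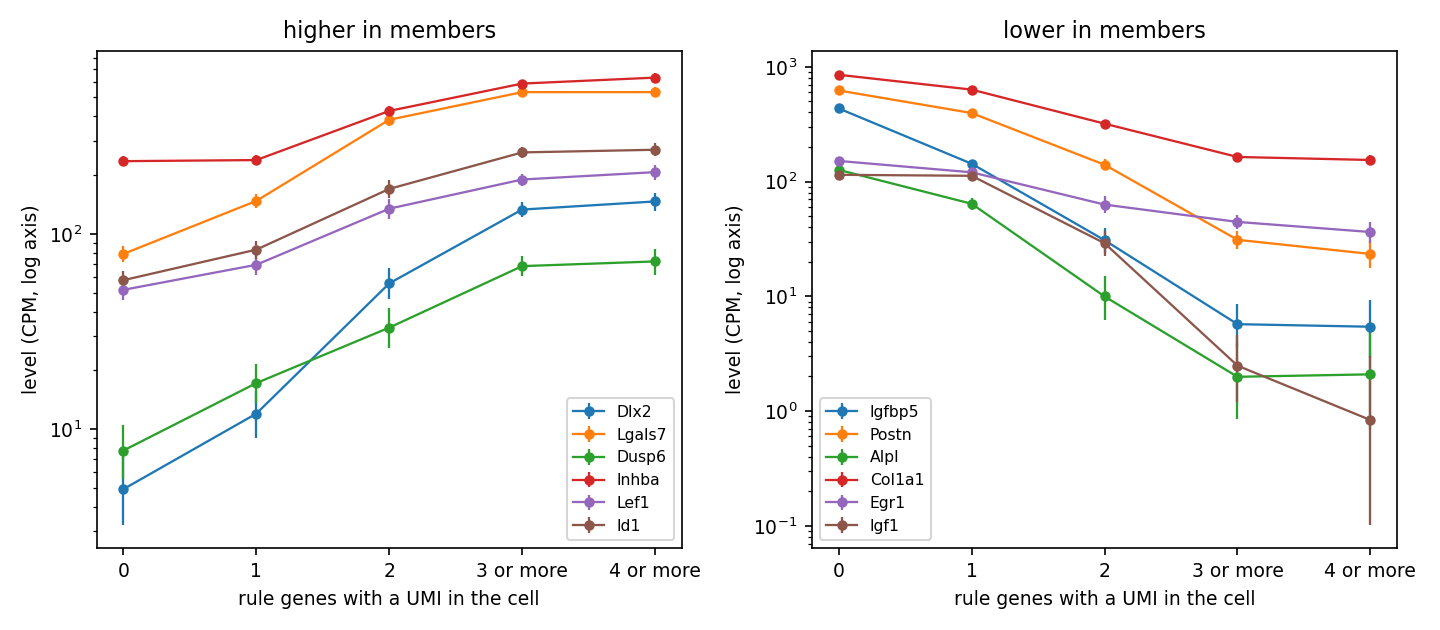
Level (CPM, log axis) of 6 genes higher and 6 genes lower in papilla-rule cells, by the number of rule genes with a UMI in a cell at E14.5, with 95% Poisson intervals. Cells with 4 or more are also among those with 3 or more. Cells of other mesenchyme could hold Ibsp or Sfrp4, and papilla-rule cells could not. Dlx2 lies at 11.99 CPM in cells with 1 rule gene and at 133 CPM in cells with 3 or more, and Igfbp5 at 143 and 5.71 CPM.

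How often the rule genes were found together is given as a description, since the same values chose the cells and cells with 1 rule gene and few mesenchymal transcripts are in neither group. Among cells of both groups without Ibsp or Sfrp4, thinned to 2000 UMIs, Fgf3 was found in 16.7% of the 174 cells with Crym and 5.31% of the 2204 cells without it. Egr3 was found in 23.6% and 8.89%, Vegfd in 14.4% and 4.08% and Tril in 40.8% and 21.1%. Penk was found in 44.3% of cells with Crym (36.7 to 52.0) and 40.7% of cells without it (38.6 to 42.7). The 8 genes whose share of cells differed most between cells with 3 or more rule genes and cells with none were Lgals7, Ccnd2, Nme1, Pclaf, Ldha, Prrx2, Top2a and Cycs, among them Ccnd2, a D-type cyclin, at 1160 CPM in papilla-rule cells and 452 CPM in other mesenchyme.

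At a Leiden resolution of 0.8 the papilla-rule cells lay mainly in 2 clusters, one with 415 of them and the other with 401. Cell cycle genes differed between these, which is a description of the clustering. Top2a was at 1202 CPM in the first and 225 CPM in the second, and Ube2c at 643 and 64.7 CPM, while Mcm5, a component of the replicative helicase, was at 31.8 and 75.2 CPM. Crym was at 143 and 150 CPM, Fgf3 at 89.8 and 75.7 CPM, Lgals7 at 531 and 573 CPM and Inhba at 590 and 574 CPM. Dlx2 was at 145 and 95.8 CPM.

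The same rule found 204 cells at E16.5, which is 4.52% of the 4511 cells that passed (3.93 to 5.17). The rule genes chose the cells at both stages, so their levels again describe the selection. Crym was at 124 CPM at E14.5 and 8.26 CPM at E16.5, Egr3 at 128 and 17.7 CPM, Penk at 470 and 109 CPM and Tril at 287 and 127 CPM. Fgf3 was at 73.0 and 49.97 CPM, and Vegfd at 62.6 CPM (56.5 to 69.1) and 53.9 CPM (45.3 to 63.7). Of the E16.5 cells 25.5% held at least 3 rule genes, against 55.8% at E14.5, although their median depth was higher, at 9858 UMIs. Stage and sample cannot be told apart, and the dissected tissue differed in stage and litter at once.

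Of 8086 genes ranked between the cells of both stages, 59 (0.73%) were at least 2-fold higher at E14.5 and 271 (3.35%) at least 2-fold lower, with a median log2 ratio of -0.16. The limit on detection could be met at either stage alone. Cells at E16.5 were deeper, with a median of 9858 UMIs against 5557. These counts and those of the lists in the next paragraph are therefore descriptions only. Thinning after the groups were set left fewer lower genes, as given in a later section. The higher genes were led by the embryonic globins Hbb-y and Hba-x, followed by Lgals7 (480 and 48.8 CPM, ratio 3.06), the transcription factor Ebf1 (109 and 8.66 CPM), Igfbp3 (196 and 27.5 CPM, ratio 2.45), Col25a1 (2.19) and the chromatin protein Hmga2 (354 and 75.5 CPM, ratio 2.09). Spp1 was at 51.8 CPM at E14.5 and counted 0 times at E16.5, which allows a level of up to 1.18 CPM. The lowest were Plac8 (2.57 and 537 CPM, ratio -5.44), Itga4 (-4.20), Smpd3, a sphingomyelinase of bone and dentin (37.5 and 805 CPM, ratio -4.10), Sgms2 (-3.89), Col8a1 (-3.69), Smoc2 (-3.61), Lypd1 (-2.89) and Bmp2 (2.25 and 75.2 CPM, ratio -2.80).

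The pathways differed in how they compared between the stages. Dlx2, at 106 and 109 CPM, Lef1, at 170 and 160 CPM, and Top2a, at 835 and 855 CPM, were close at both stages. Of 14 ranked BMP and activin genes 1, Inhba, was higher at E14.5 (531 and 129 CPM, ratio 1.96) and 3 were lower, Bmp2 (-2.80), Bambi (-2.64) and Bmp3 (-1.03), whose ratio came to 0.031 without Penk in the rule. Of 13 ranked FGF genes 1, Dusp6, was higher (55.8 and 16.53 CPM, ratio 1.31) and 0 lower. Of 17 ranked Wnt genes 7 were lower at E14.5, among them Sfrp2 (-2.80), Notum (-2.15) and Dkk2 (-1.67), and of 11 ranked follicle and osteogenic genes 9 were lower, among them Col1a1 (219 and 1095 CPM, ratio -2.27). Of these Alpl (-1.43), Spon1 (-1.16) and Sp7 (-1.12) changed sign with thinning before the rule, to 0.93, 0.93 and 0.32, as did the lower Wnt gene Wnt6 (-1.33), to 0.41. Of 17 ranked immediate early genes 8 were lower at E14.5. Ptn was at 2190 and 7256 CPM, and Msx2 at 32.1 and 151 CPM. Some markers of other cell types also summed to less at E14.5, namely epithelial (15.9 and 44.9 CPM), endothelial (23.4 and 52.7), chondrocyte (13.8 and 53.5), neuron (28.1 and 98.0) and glia (10.4 and 11.4). Immune (23.1 and 4.33 CPM), pericyte (91.6 and 46.0), erythroid (8776 and 8465) and muscle markers (3.05 and 2.36) summed to more. The part of these cell types in the ratios between the stages was not tested.

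**Figure D5:**
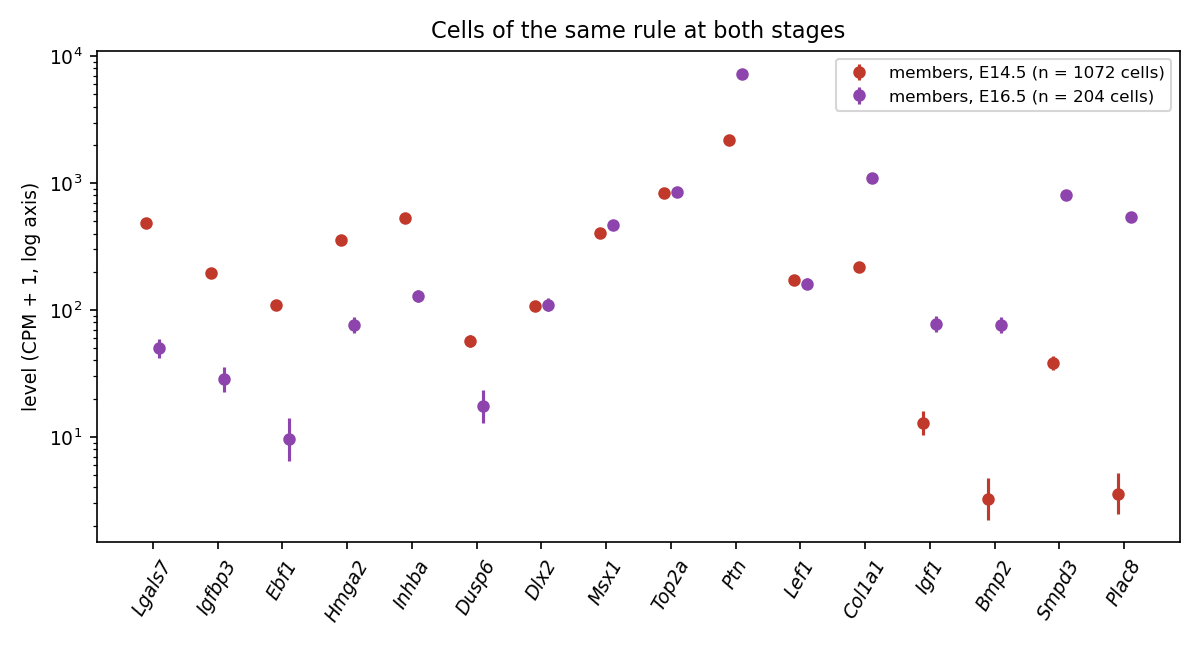
Level (CPM plus 1, log axis) of 16 genes in cells of the same rule at E14.5 and E16.5, with 95% Poisson intervals. Lgals7 lies at 480 and 48.8 CPM and Plac8 at 2.57 and 537 CPM, while Dlx2 lies at 106 and 109 CPM.

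Within each stage the leading genes separated the papilla-rule cells from other mesenchyme to different degrees. Dlx2 had a log2 ratio of 2.38 at E14.5 and 0.59 at E16.5, where other mesenchyme held it at 69.5 CPM. Lgals7 had ratios of 1.86 and 0.07, Id1 1.46 and 0.13, Lef1 1.30 and -0.11, and Inhba 1.03 and -0.18. Asns had ratios of 1.56 and 1.23. Among the low genes Cdkn1c had ratios of -2.64 and -2.17, Maf -2.41 and -2.29 and Igfbp5 -3.59 and -2.80. These genes were named for their ratios at E14.5, and the effect of that choice on the comparison was not tested. Whether these ratios differ between the stages was not tested, since each stage is 1 sample.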

How the data were processed

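Single-cell RNA libraries were made with a 10x 3′ version 3 kit. The authors aligned reads to mm10 with Cell Ranger 4.0.0 (per the labels) and deposited the UMI counts as 1 unnormalised matrix for each stage, before their filter on cells. Each stage was treated as 1 sample. The members, gene lists and tests were chosen with earlier results of these data known. CPM was computed from counts summed over cells, and ratios with 10 CPM added. Poisson, Clopper-Pearson and conditional binomial 95% intervals cover counting error only, and a count of 0 was given a limit of 3 counts. Genes named were the rule genes, the 15 highest and 15 lowest over other mesenchyme, the 8 highest and 8 lowest between stages, the 8 that follow the rule genes, the 6 leading genes of a cluster and, of each list, up to 6 by ratio and up to 3 by level. The chosen lists covered transcription factors, signalling pathways, matrix, cell cycle and other cell types, and 1 listed gene is not reported here. Glia, muscle, pericyte, chondrocyte and neuron lists summed to 10.4, 3.05, 91.6, 13.8 and 28.1 CPM in papilla-rule cells and 14.8, 4.70, 110, 45.4 and 129 CPM in other mesenchyme.

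Clusters came from SCTransform (sctransform 0.4.2, Seurat 5.3.0, R 4.3.3), 20 principal components and the Leiden algorithm at 0.4 (leidenbase 0.1.32), with the 18 rule genes left out of the variable genes. Levels and intervals used scipy 1.17.1 and numpy 2.4.6 under Python 3.11.15. Doublets were scored with Scrublet in scanpy 1.11.5, which called 0 cells at E14.5 and so did not work as a caller. No cell was removed for its score, and 2.80% of papilla-rule cells and 5.07% of other mesenchyme lay in the highest 5% of scores. Classes of endothelial, immune and erythroid cells needed UMIs of at least 3 of 8 markers and of no other class. The erythroid class took 2424 cells and was not used as a background. Ratios were checked on simulated counts. Other filters, rules, thinning, added CPM, weights and resolutions were tried as alternatives. Gene symbols that occur more than once were left out of the ranking. Positions are those of GRCm38, the same build as mm10.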

Additional observations from a re-analysis of the deposited data

Results flagged for a closer look

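Igfbp3 was higher in papilla-rule cells than in other mesenchyme at E14.5, with 196 and 60.7 CPM and a log2 ratio of 1.54, and lower in cells of the same rule at E16.5, with 27.5 and 163 CPM and a ratio of -2.20. The opposite directions at the 2 stages drew attention to it. The difference between the stages was not tested, since each stage is 1 sample.

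At E11.5, a stage outside the comparisons above, 816 of 6573 cells that passed met the same rule. In these cells Tril was at 213 CPM and Crym at 109 CPM, whereas Egr3 and Fgf3 were counted 6 times and 1 time, and Lgals7 2 times. Barx1 was at 391.9 CPM and Lhx8 at 149 CPM, against 1.44 and 19.6 CPM in papilla-rule cells at E14.5. What the 816 cells are was not tested.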

How the results depend on the processing

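No paired analysis was possible because nothing links single barcodes to the labelled samples. The number of papilla-rule cells was 609 when cells were thinned to 2000 UMIs before the rule was applied, 598 with at least 3 rule genes and 699 with at least 2 of 5 without Penk, against 1072. With 1 CPM added, 107 genes were higher than in other mesenchyme, and 92 were higher and 699 lower at E14.5 than at E16.5. With 50 CPM added, 10 were higher and 49 lower than in other mesenchyme, and 13 higher and 51 lower between the stages, since an added level holds down the ratios of low genes. Between the stages, thinning after the groups were set gave 137 lower genes, thinning before the rule gave 237 higher genes with 33 cells left at E16.5, and at least 3 rule genes gave 95 higher genes with 52 cells at E16.5. The cluster with most papilla-rule cells held 86.7% of them at a resolution of 0.2 and 38.7% at 0.8. Without any of the 6 epithelial genes 117 cells were left at E16.5 in place of 204. All other numbers of papilla-rule cells at E14.5 and of genes past 2-fold among all genes ranked were within 1.5 times of the reported ones, including the alternatives chosen after seeing the data, which were papilla-rule cells of cluster 1 only (78 higher and 223 lower than in other mesenchyme, and 65 and 325 between the stages) and totals without globin and mitochondrial genes.

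Of 344 ratios of named and listed genes, 137 passed 2-fold, and 7 values among the 2068 recomputed for these changed sign, all of them between the stages. In all, 159 of these values fell under 2-fold, of which 74 with 50 CPM added, 26 with thinning before the rule and 12 against other mesenchyme without Ibsp or Sfrp4. In the last comparison Dkk1 came to 0.94, Id3 to 0.98, Spp1 to 0.98, Egr1 to -0.98, Junb to -0.77, Nrp2 to -0.84 and Lhx8 to -0.99, and Inhba came to 0.97 without cells of exactly 1 rule gene. With thinning before the rule Alpl came to 0.93, Spon1 to 0.93, Hapln1 to 0.50, Wnt6 to 0.41, Sp7 to 0.32 and Crabp2 to -0.40, and without Penk Bmp3 came to 0.031. The cause was not tested. The small cell number at E16.5 limits those ratios, and sparse genes such as Flt4 rest on single counts.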

Other observations

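Outside the chosen lists, 4 of the 59 higher genes, picked after their values were seen, encode enzymes of amino acid and one-carbon metabolism. Asns, asparagine synthetase, was at 83.9 and 21.8 CPM in papilla-rule cells and other mesenchyme, Mthfd2, a mitochondrial folate enzyme, at 114 and 35.7 CPM, Psat1, of serine synthesis, at 65.0 and 23.2 CPM, and Shmt1, which links serine and glycine, at 29.2 and 8.83 CPM. Their log2 ratios were 1.56, 1.44, 1.18 and 1.06. With 50 CPM added Asns came to 0.90, and the others also fell under 2-fold. The group was formed from these values and was not tested.

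The 338 cells of cluster 1 that the rule did not take held Lgals7 at 456 CPM and Spp1 at 63.6 CPM, against 545 and 58.6 CPM in papilla-rule cells of the cluster, and Dlx2 at 49.7 against 124 CPM. Immune markers, Tyrobp among them at 38.7 CPM in 8 cells, summed to 97.1 CPM in these cells and to 27.4 CPM in papilla-rule cells of cluster 1, and their part in these levels was not tested.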
